A study of Mus musculus with 107 samples.

Results

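Astrocytes of the mouse cerebral cortex were compared with astrocytes of the cerebellum in arrays of ribosome-bound RNA. The cells were chosen by their labels: 4 arrays of cortical astrocytes and 3 arrays of cerebellar astrocytes, 7 of all the arrays of a series that covers 24 tagged populations. The RNA came from TRAP, the affinity purification of translating ribosomes: a tagged ribosomal protein is made in the cells that use a chosen driver and its ribosomes are pulled out of the tissue. The Aldh1l1 driver was used in both regions. All cerebellar arrays and cortical replicates 1 and 2 came from line JD130, and cortical replicates 3 and 4 came from line JD133. RNA left behind in the supernatant (unbound RNA) gave the tissue level, with 9 arrays of cortex, 2 of them from the Aldh1l1 lines, and 7 arrays of cerebellum. None of the unbound cerebellum arrays came from an Aldh1l1 line. They came from lines of Bergmann glia, Purkinje neurons and mature oligodendrocytes. Bergmann glia of the cerebellum (Septin4 driver, line DS152, 3 arrays) served as the nearest other astroglial population, and mature oligodendrocytes (Cmtm5 driver, line JD307) and mixed oligodendroglia (Olig2 driver, line JD97) served as other glia taken from both regions, with 12 arrays in all. The labels gave no age, sex or strain for these mice.

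Astrocytes are the glia that clear transmitters, buffer potassium, feed neurons and wrap synapses. They arise from local progenitors, which carry transcription factors of their region of the neural tube, and they share one core programme across the brain: aldehyde dehydrogenase Aldh1l1, glutamate transporters, glutamine synthetase and connexins. In the cerebellum they come in several forms, of which the Bergmann glia, whose fibres line the Purkinje cell dendrites, are the best known; Aldh1l1 is active in these cells too.

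Values below are log2 intensities of the authors' GCRMA values after each group was brought to the same mean of 18 biotinylated control probe sets. A mean of 6, an intensity of 64, was used as the expression minimum. A gene was tested where it reached that minimum in cortical or cerebellar astrocytes and its TRAP level exceeded the unbound level in at least 1 of them, and it was called different at an adjusted p under 0.05 in limma, with at least a 2-fold difference and a TRAP level over the unbound level on the higher side. Where the lower population lay under the minimum, the fold is given as a lower bound against the minimum. Errors of levels are SDs over arrays and errors of differences are standard errors (SE) from the fit. Before scaling, the mean of the control probe sets was 11.57 in cortical and 11.54 in cerebellar astrocytes, against 11.71 in unbound cortex and 11.13 in unbound cerebellum. Single arrays ran from 10.62 to 12.66 in unbound cortex and from 10.82 to 11.32 in unbound cerebellum. The scaling shifted whole groups and left this spread in place. Unbound arrays correlated at 0.931 to 0.995 in cortex and at 0.959 to 0.993 in cerebellum. Replicates correlated at 0.969 to 0.992 in cortical and at 0.996 to 0.998 in cerebellar astrocytes. The cerebellar arrays varied little: of 5476 tested genes at the minimum there, 1039 (19%) had the same value in all 3 arrays, to an SD under 0.005, and the median SD was 0.0733 against 0.303 in cortical astrocytes. The fit takes its spread from all arrays of the series, so that its SE does not rest on these values alone. The deposited values were normalized within groups of replicates, in the other groups too. Pooling therefore does not remove any effect of that step on the SE and the p-values, and this effect was not tested.

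Both populations carried the RNA of astrocytes. Aldh1l1 itself was read at 11.53, 11.54, 11.35 and 12.06 in the cortical arrays and at 10.08, 10.04 and 10.04 in the cerebellar arrays. Unbound cortex had a median of 7.36 (6.76 to 8.39) and unbound cerebellum one of 7.28 (6.88 to 8.51), below every TRAP array. Aldh1l1 was 4.23 above unbound RNA in cortex and 2.50 above it in cerebellum (limma adjusted p = 5e-26 and 1e-11). All 27 astrocyte genes on the array that were tested stood above unbound RNA in both regions, with a median excess of 3.40 in cortex and 1.99 in cerebellum. The excess passed the test for 27 of 27 genes in cortex and for 22 of 27 in cerebellum, where 33% and 16.4% of all genes tested against unbound RNA were called higher in TRAP.

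RNA of other cells was present at lower levels, and not equally in the 2 regions. The 12 pan-neuronal genes all lay under unbound RNA in both regions, with a median difference of -4.50 in cortex and -4.05 in cerebellum. Gabra6, a GABA receptor subunit of granule neurons, was at the bottom of the scale in cortical astrocytes (2.04 to 2.05) and at 11.63 to 11.66 in cerebellar astrocytes, under the 15.01 to 15.75 of unbound cerebellum. The summed intensity of 10 granule neuron genes was 191 to 429 in cortical and 4790 to 4910 in cerebellar astrocytes, against 102000 to 157000 in unbound cerebellum. The summed intensity of 11 cortical projection neuron genes was 2380 to 2770 in cortical and 404 to 510 in cerebellar astrocytes, against 18700 to 40600 in unbound cortex. Vip, a peptide gene of interneurons, was read at 9.93, 10.38, 9.23 and 7.81 in cortical astrocytes and at 2.06 in cerebellar ones. Snap25, a synaptic protein gene of all neurons, was read at 10.81, 12.55, 11.04 and 12.56 in cortical astrocytes, replicates 2 and 4 being the higher, and at 12.12, 12.24 and 12.37 in cerebellar ones. Their part in the regional differences was not tested. The requirement of TRAP over unbound RNA and the expression minimum kept most genes of this kind from the calls. In neither region was a granule neuron gene both at the minimum and above unbound RNA, so the 2 tested could not be called. Of 3 Purkinje neuron genes tested, 1 was called. The only gene tested from the projection neuron list (Fezf2) and the only one from the interneuron list (Npy) were called. Microglial genes reached a summed intensity of 170 to 510 in cortical and 212 to 216 in cerebellar astrocytes, and none of the 13 was tested.

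Choroid plexus genes stood apart. Ttr, the transthyretin gene of the choroid plexus, was read at 10.60, 15.34, 9.83 and 13.53 in the 4 cortical arrays, at 15.77, 15.60 and 15.96 in the cerebellar arrays and at 2.73, 12.26 and 11.59 in Bergmann glia. Cortical replicates 2 and 4 were therefore higher than replicates 1 and 3, in each of the 2 lines. Its regional difference did not pass the test (limma adjusted p = 0.058). Of 5 ependymal and choroid plexus genes tested, 3 were higher in cerebellar astrocytes, where 12.1% of all tested genes were. The 3 were the chloride channel gene Clic6 (9.23, 7.95 and 10.04 against 2.76 to 3.27), the potassium channel gene Kcnj13 (8.75, 8.33 and 9.72 against 3.91 to 5.63) and the folate receptor gene Folr1 (6.19, 5.42 and 6.93 against 2.10). The call for Clic6 ended without cerebellar replicate 3. The summed intensity of the list was 1870 to 42100 in cortical and 51700 to 67400 in cerebellar astrocytes. Its part in the other differences was not tested.

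**Figure D1:**
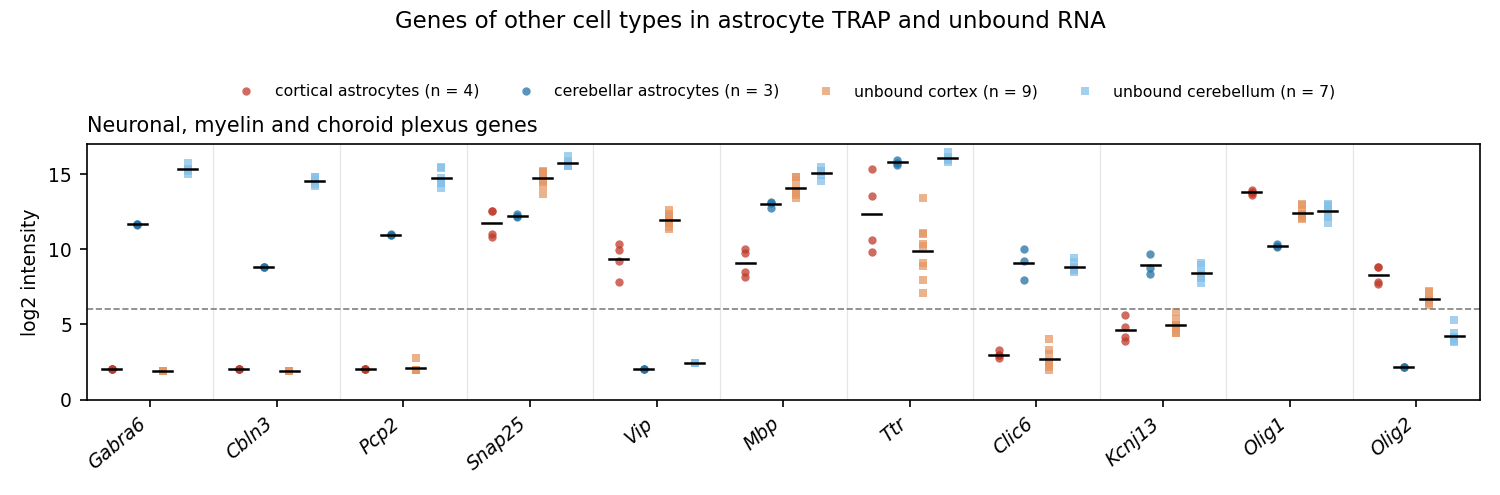
Log2 intensity (vertical axis) of genes of other cell types in each array of cortical and cerebellar astrocyte TRAP RNA (circles) and of unbound RNA (squares); black bars are means and the dashed line is the minimum of 6. Gabra6, Cbln3 and Pcp2 are low in cortical astrocytes and intermediate in cerebellar astrocytes, under unbound cerebellum, while Ttr spreads from 9.83 to 15.34 over the cortical arrays.

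Over all genes, 5873 were tested between the 2 populations. Of these, 998 (17%) were higher in cortical and 713 (12.1%) were higher in cerebellar astrocytes. These 2 shares are the background for the counts of each gene list. Quantile normalization in place of the control probe sets gave 805 and 1070, so that the share of calls on the cortical side was 58.3% with the controls and 42.9% with quantiles. On the same side under both scalings were 742 genes (12.6%) and 707 genes (12%). The arrays of the 2 populations did not overlap for 3714 genes (63.2%). The median difference over all tested genes was 0.17 with the controls and -0.02 with quantiles. In RNA pulled from a whole region, a smaller number of cells and less RNA per cell cannot be told apart, and the labels do not say how many of the tagged cells in cerebellum were Bergmann glia.

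Regional transcription factors were considered first. Of 10 telencephalic patterning factors tested, 7 were higher in cortical and none in cerebellar astrocytes, against 17% and 12.1% of all tested genes. The list median was 4.01. Lhx2, the LIM homeobox factor that patterns the cortex, was read at 13.16, 13.00, 13.04 and 14.12 in cortical astrocytes and at 2.06 in every cerebellar array. Its difference of 11.27 ± 0.19 (SE), at least 161-fold, was the largest of the comparison on the cortical side (limma adjusted p = 2e-68). Lhx2 stood at 9.38 to 10.08 in unbound cortex and at 2.43 in unbound cerebellum, so that the astrocyte RNA exceeded its own tissue by 3.63.

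The other members that were called followed the same split. Dmrta2, a doublesex-related factor of the dorsal telencephalon, was read at 11.60, 11.41, 11.50 and 10.83 against 2.06 (at least 40.4-fold), with 5.91 to 7.04 in unbound cortex. Emx2, a homeobox factor that sets cortical areas, was read at 10.10, 10.06, 9.62 and 10.91 against 2.06 (at least 18.0-fold). Otx1, a homeobox factor of forebrain and midbrain, was read at 9.18, 8.70, 9.05 and 9.17 against 2.06 (at least 8.14-fold). Otx1 had means of 2.54 and 2.50 in unbound cortex and cerebellum, so that the difference between the astrocytes was not seen between the tissues. Lef1, the Wnt-dependent factor, stood at 7.24 ± 0.14 (SD, n = 4) against 2.06, and the nuclear receptor gene Nr2f2 at 8.28 ± 0.62 against 5.44 ± 0.05 (n = 3). Fezf2, a zinc finger factor best known from deep-layer projection neurons and kept here in the projection neuron list, was read at 10.79, 10.17, 10.49 and 10.57 in cortical astrocytes against 2.06, and exceeded its mean of 8.73 in unbound cortex.

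Pax6, a paired-box factor of the dorsal telencephalon that granule neurons also use, was less divided. It was read at 9.75, 9.40, 9.52 and 9.95 in cortical and at 8.09, 8.54 and 8.37 in cerebellar astrocytes, a difference of 1.33 ± 0.25. In unbound RNA the order was the opposite, with 1.87 to 3.47 in cortex and 10.89 to 12.18 in cerebellum. The other 3 members did not pass the call: the nuclear receptor gene Nr2f1 (13.42 and 12.83), Hopx (14.00 and 14.09) and Tcf7l2 (8.69 and 7.86).

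**Figure D2:**
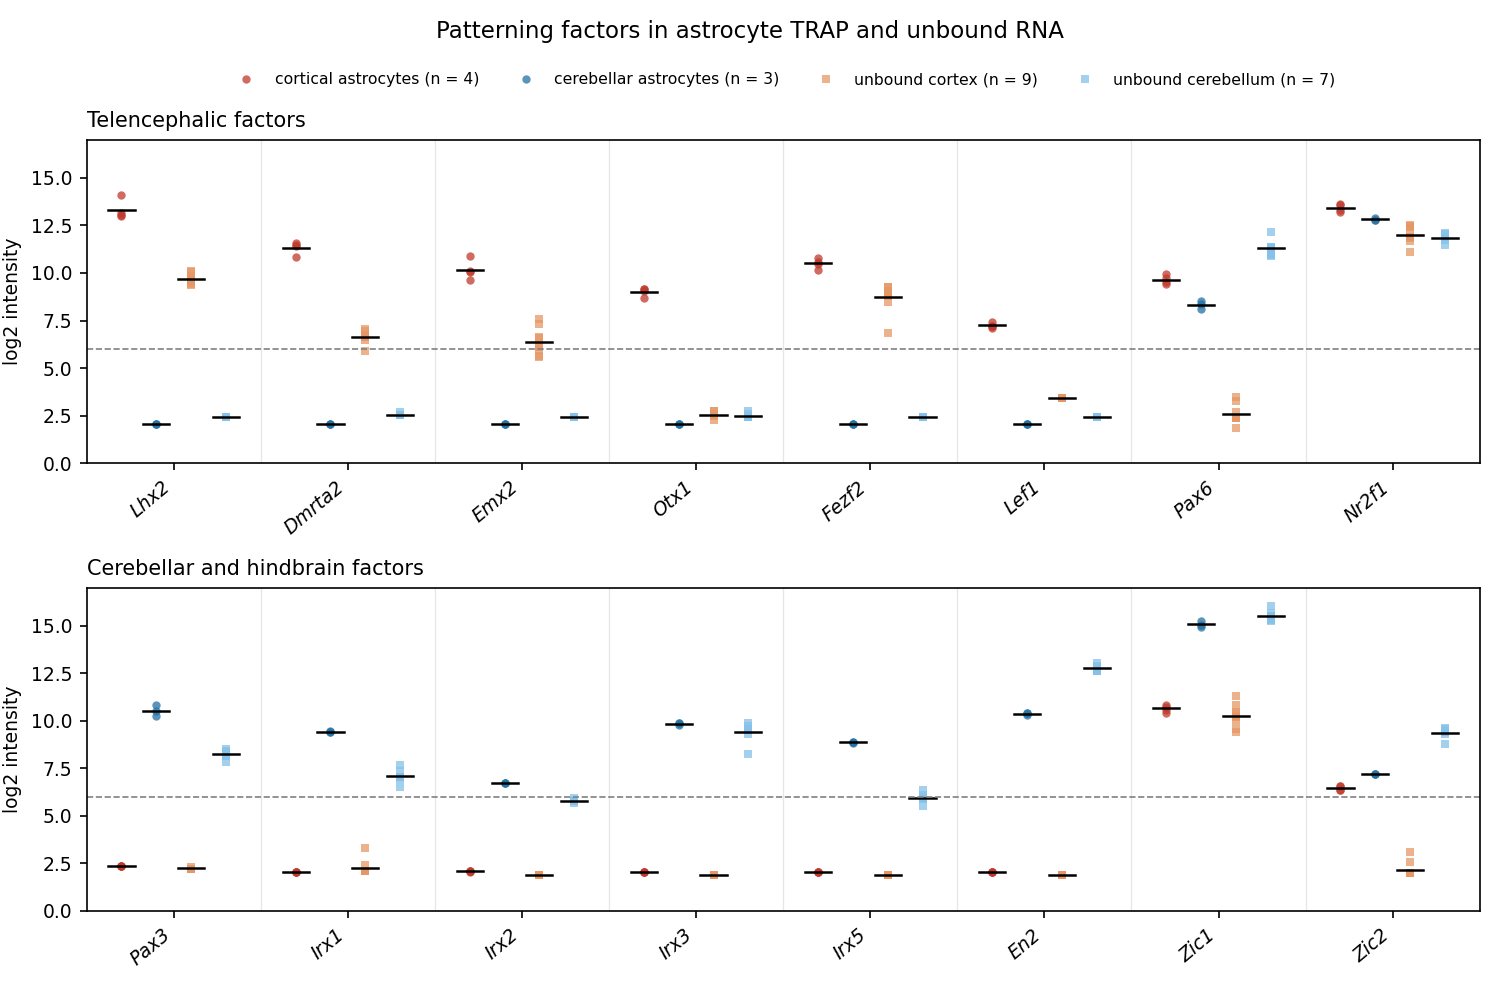
Log2 intensity (vertical axis) of telencephalic (upper panel) and cerebellar or hindbrain (lower panel) factors in each array of astrocyte TRAP RNA (circles) and unbound RNA (squares), with means as black bars and the minimum of 6 as a dashed line. Lhx2, Dmrta2, Emx2, Otx1 and Fezf2 sit at 2.06 in cerebellar astrocytes, and Pax3 and the Irx genes sit between 2.04 and 2.34 in cortical astrocytes.

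Factors of cerebellum and hindbrain gave the mirror image. Of 9 tested, 5 were higher in cerebellar and none in cortical astrocytes (list median -6.82), against 12.1% and 17% of all tested genes. Pax3, a paired-box factor of the dorsal neural tube, was read at 10.82, 10.26 and 10.50 in cerebellar astrocytes and at 2.34 in all cortical arrays, a difference of -8.18 ± 0.19, at least 23.0-fold (limma adjusted p = 5.3e-56). Unbound cerebellum lay at 7.82 to 8.50, below each cerebellar TRAP array. The Iroquois homeobox genes, which occur in the genome as clusters and pattern the neural tube behind the forebrain, gave 4 of the 5 calls. Irx1 was read at 9.44, 9.42 and 9.42 against 2.05, Irx3 at 9.86, 9.78 and 9.86 against 2.04, Irx5 at 8.88, 8.81 and 8.88 against 2.04, and Irx2 at 6.72 in every cerebellar array against 2.05 to 2.08. The folds were at least 10.8, 14.3, 7.24 and 1.64.

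Other cerebellar factors were also read higher in cerebellar astrocytes but stood below the tissue. En2, an engrailed homeobox factor, was read at 10.28, 10.38 and 10.38 in cerebellar astrocytes against 2.04 in cortical ones, while unbound cerebellum held 12.59 to 13.03. Zic1, a zinc finger factor of granule neurons, stood at 15.06 ± 0.16 (SD, n = 3) against 10.64 ± 0.19 (n = 4), with 15.52 in unbound cerebellum. Neither was called, since their higher side was not above unbound RNA; both passed when that requirement was dropped. Zic5 (10.76 against 8.77) was called only under that change, under quantile normalization and with the mean of all probe sets. Zic2 (7.22 against 6.46, with 9.36 in unbound cerebellum) was not called.

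Of 27 core astrocyte genes tested, 4 were higher in cortical astrocytes and none was higher in cerebellar astrocytes, where 17% and 12.1% of all tested genes were, and the list median was 0.24, near the 0.17 of all genes tested. The 4 were Aldh1l1 itself (1.57 ± 0.34), the glutamate transporter Slc1a2, the mitochondrial glutamate carrier Slc25a18 (14.22 ± 0.42 against 12.90 ± 0.12) and the glial factor Sox9 (10.55 ± 0.20 against 9.51 ± 0.12). The call for Sox9 ended under quantile normalization, without cortical replicate 4 and without cerebellar replicate 2, and another Sox9 probe set at the minimum went the other way (5.01 in cortical and 6.38 in cerebellar astrocytes). Slc1a2, which carries most glutamate uptake in the forebrain, was read at 14.47, 13.85, 13.94 and 14.27 in cortical and at 12.19, 11.99 and 12.33 in cerebellar astrocytes (1.96 ± 0.41, 3.90-fold, limma adjusted p = 2.7e-05). Unbound RNA showed a like difference, with 11.88 to 12.69 in cortex and 9.53 to 11.79 in cerebellum.

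Members without a call included the hallmark proteins of the cell type. Slc1a3, the glutamate transporter that dominates in the cerebellum, stood at 13.33 in cortical and 14.07 in cerebellar astrocytes (-0.73 ± 0.27). Glutamine synthetase Glul stood at 14.65 and 13.98, the water channel Aqp4 at 13.61 and 14.52, the filament protein Gfap at 13.61 and 13.37 and the connexin Gja1 at 14.94 and 15.15. Differences of Slc1a3, Glul and Aqp4 had limma adjusted p-values of 0.016, 0.020 and 0.035 but were smaller than 2-fold. Gfap and Gja1 differed by 0.24 ± 0.47 and -0.20 ± 0.31. These values hold for the chosen probe sets. Another Glul probe set stood at 14.11 and 12.01. Others of Slc1a3 stood at 13.11 and 12.72, 10.28 and 8.31, and 12.28 and 12.50. Those of Gfap stood at 10.10 and 9.03 and at 10.80 and 9.97. Those of Aqp4 were higher in cerebellar astrocytes, and those of Gja1 differed by -0.70 to 2.26. They were not tested singly.

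Genes known from Bergmann glia were found on the cerebellar side. Of 16 tested, 10 were higher in cerebellar and none in cortical astrocytes (list median -2.15), against 12.1% and 17% of all tested genes. Among the 10 were the growth factor Gdf10, Septin4, the protease inhibitor A2m, the Wnt inhibitor Wif1 and the AMPA receptor subunits Gria1 and Gria4. The others were the inhibitor of metalloproteases Timp4, Cdc42ep4, vimentin (Vim) and neuropeptide Y (Npy). Gdf10 was read at 14.15, 14.15 and 14.21 against 9.28, 8.20, 9.65 and 8.86 in cortical astrocytes. A2m stood at 12.63 ± 0.25 (SD, n = 3) against 6.28 ± 0.15 (n = 4), and Septin4 at 15.65 ± 0.05 against 10.86 ± 0.34. Hopx, Fabp7, Slc1a3, Pla2g7, Ptprz1 and Etv5 of the same list were not called.

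The genes on the cerebellar side were also set against the Bergmann glia arrays. They had been chosen for high values in the same cerebellar astrocyte arrays, which favours calls above Bergmann glia. The shares are therefore a description and not a test. Of the 713 genes, 546 (76.6%) lay within 2-fold of Bergmann glia, against 85.1% of all tested genes. Another 97 (13.6%) were called higher in the cerebellar astrocyte arrays than in Bergmann glia and 65 (9.12%) were called lower. Of the 4334 genes tested between these populations, a set filtered in another way, 5.42% and 11.3% were called. Pax3, for example, stood at 10.70 to 10.71 in Bergmann glia and Irx3 at 10.12 to 10.59. Wif1 was higher in Bergmann glia (12.41, 11.15 and 11.10) than in cerebellar astrocytes (9.29, 9.61 and 9.79), as was Gria1, while the retinoic acid hydroxylase gene Cyp26b1 was read at 6.84 to 6.91 in cerebellar astrocytes and at 2.69 to 2.83 in Bergmann glia. These calls depended on scaling: with no scaling 1143 genes, and with quantiles 243, were higher in Bergmann glia, against 488 here.

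Receptors for transmitters divided in both directions. Of 13 tested, 4 were higher in cortical and 5 in cerebellar astrocytes (list median -0.75), against 17% and 12.1% of all tested genes. Gria4, a subunit of the AMPA glutamate receptor, was read at 13.16, 13.17 and 13.17 in cerebellar astrocytes and at 2.05, 2.47, 2.06 and 2.06 in cortical ones. The difference of -11.01 ± 0.28, at least 144-fold, was the largest on the cerebellar side (limma adjusted p = 4.6e-54). Unbound RNA held Gria4 in both tissues, at 7.04 to 8.93 in cortex and 11.26 to 12.04 in cerebellum, so that cortical astrocytes lay far below their tissue.

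The subunit gene Gria1 was read at 12.91, 12.94 and 12.99 in cerebellar astrocytes and at 7.49, 7.03, 7.35 and 7.03 in cortical ones, 52.8-fold, although unbound cortex (10.31 to 11.89) was not below unbound cerebellum (10.30 to 11.37). The auxiliary subunits Cacng5 and Cacng7, which sit beside AMPA receptors in the membrane, are on no list and are named as members of the 12 genes with the largest difference on the cerebellar side. Cacng5 was read at 12.99, 12.90 and 12.95 against 2.35 to 2.50 (at least 123-fold) and Cacng7 at 10.07, 9.93 and 9.91 against 2.04 (at least 15.7-fold). Gria2, the subunit that makes AMPA receptors impermeable to calcium, had the opposite order, with 7.76 ± 0.44 in cortical and 3.86 in cerebellar astrocytes; it was under unbound RNA in both regions and was not tested. GABA receptor subunits Gabra4 (12.45 against 10.36) and Gabra2 (9.89 against 8.26) were also higher in cerebellar astrocytes, as was the serotonin receptor gene Htr2c, which the choroid plexus uses too and which was at 7.73 ± 0.97 (SD, n = 3) against 4.04 ± 0.52 (n = 4), with 1.85 in Bergmann glia.

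The cortical side held other receptors. Grin2c, an NMDA receptor subunit, was read at 11.03, 9.87, 11.03 and 10.99 in cortical astrocytes and at 4.39, 4.39 and 4.22 in cerebellar ones, at least 26.5-fold. Unbound RNA had the opposite order, with 5.22 to 6.01 in cortex and 10.59 to 11.66 in cerebellum. The metabotropic glutamate receptor gene Grm3 was read at 13.32, 12.32, 13.24 and 11.56 against 9.95, 9.81 and 9.99, 6.47-fold. Gabbr1, a subunit of the GABA-B receptor, stood at 13.37 ± 0.30 against 10.87 ± 0.10, with another probe set in the opposite order (10.22 and 10.82), and the GABA-A subunit gene Gabrg1 at 11.80 ± 0.30 against 10.28.

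Uptake and breakdown of transmitters differed in part. Of 12 glutamate and GABA handling genes tested, 4 were higher in cortical and 3 in cerebellar astrocytes (list median 0.57). The shares over all tested genes were 17% and 12.1%. Slc38a1, a glutamine transporter, was read at 13.19, 13.12 and 13.27 in cerebellar astrocytes against 8.99, 9.19, 9.03 and 8.44 in cortical ones, 19.4-fold. Slc6a9, a glycine transporter, stood at 11.79 ± 0.10 against 9.38 ± 0.27, and the GABA-degrading dehydrogenase Aldh5a1 at 11.28 ± 0.09 against 10.13 ± 0.13. Dao, D-amino acid oxidase, which breaks down D-serine, is on no list and is one of the 12 genes with the largest difference; it was read at 11.36, 11.32 and 11.36 against 2.04 to 2.09, at least 40.7-fold. On the cortical side the GABA transporter Slc6a11 was read at 7.02, 6.47, 7.53 and 7.98 against 2.07 and monoamine oxidase Maob at 11.65 ± 0.38 against 10.22 ± 0.13; the call for the glutamine transporter Slc38a3 ended under quantile normalization, without cortical replicate 1 and without cortical replicate 4.

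Of 17 potassium, water and gap junction genes tested, 4 were higher in cortical astrocytes and none in cerebellar ones, where 17% and 12.1% of all tested genes were, and the list median was -0.11. The inward rectifier Kcnj10, the main potassium channel of astrocytes, stood at 12.12 and 12.67 and was not called. The leak channel gene Kcnk2 was higher in cortical astrocytes (10.86 ± 0.41 against 8.10 ± 0.05) and stood at 3.25 to 3.39 in Bergmann glia. Fxyd6, a regulator of the sodium pump, was read at 9.45, 8.20, 8.94 and 8.83 against 2.42, although unbound RNA held 8.43 in cortex and 8.16 in cerebellum. Kcnk1 and the glycerol channel gene Aqp9 were the other members called.

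**Figure D3:**
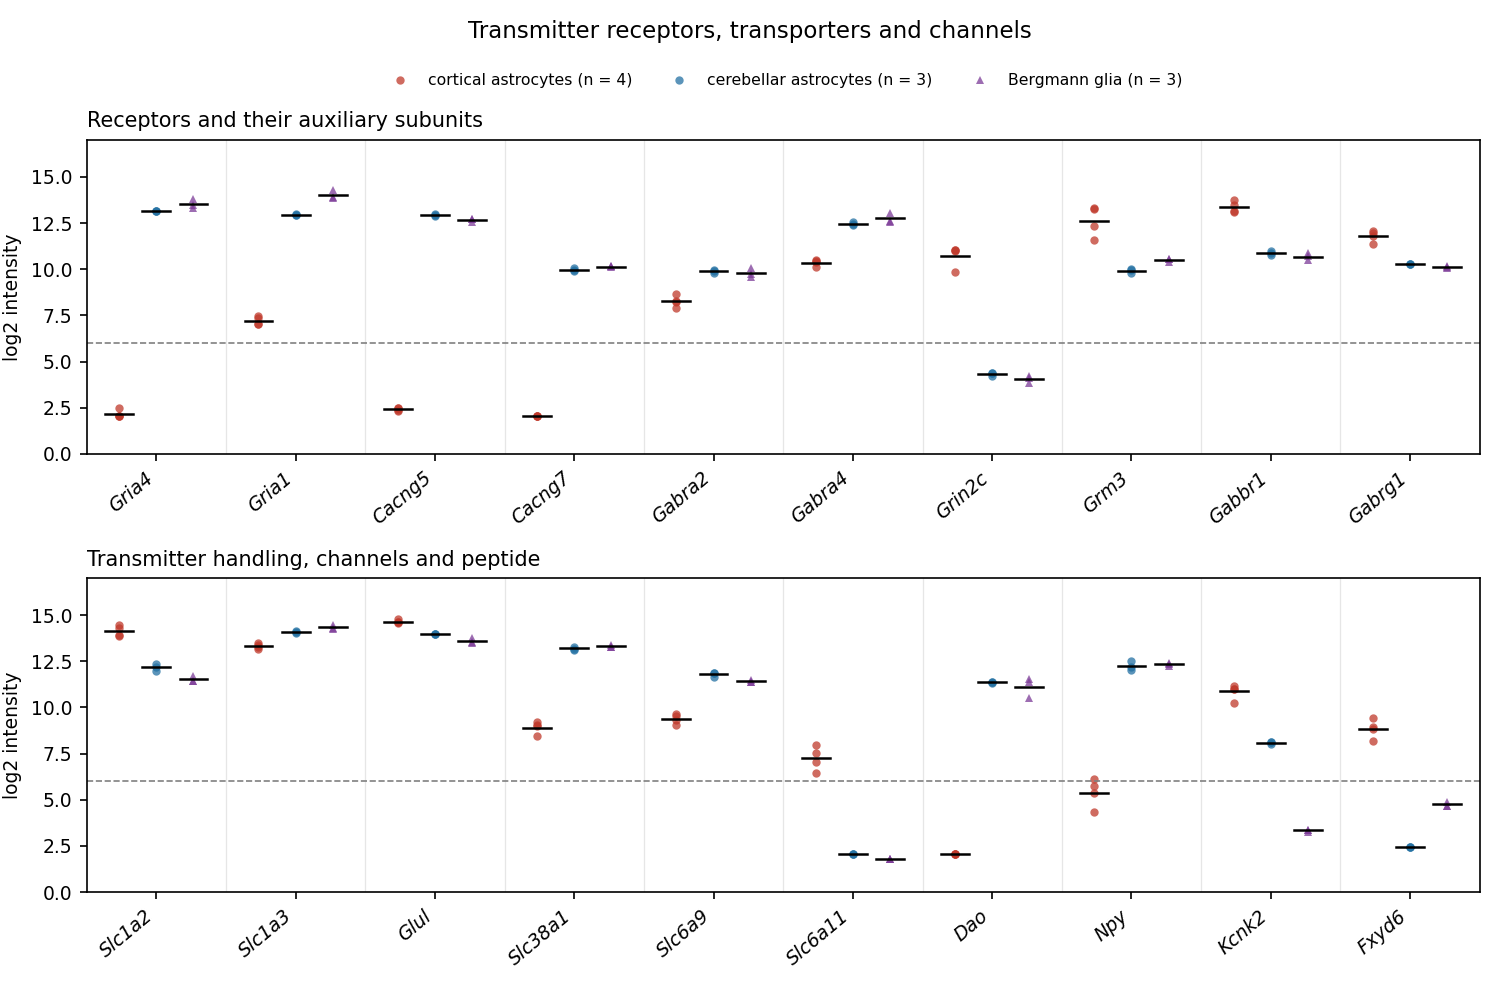
Log2 intensity (vertical axis) of receptor genes (upper panel) and of transporters, channels and Npy (lower panel) in each array of cortical astrocytes, cerebellar astrocytes and Bergmann glia, with means as black bars and the minimum of 6 as a dashed line. Gria4, Cacng5, Cacng7 and Dao lie near 2 in cortical astrocytes and above 9 in the cerebellar populations. Grin2c, Slc6a11 and Fxyd6 lie above the minimum in cortical astrocytes and under it in the cerebellar populations.

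Genes of the Notch pathway were on the cortical side. Notch receptors, when bound by ligands such as Jag1 on a neighbouring cell, release a fragment that joins the DNA-binding protein Rbpj and turns on Hes and Hey repressors and the feedback inhibitor Nrarp. Of 13 Notch pathway genes tested, 9 were higher in cortical and none in cerebellar astrocytes, against 17% and 12.1% of all tested genes. The list median was 1.52 against 0.17 over all genes. RefSeq promoter entries (GRCm38.p6) were held for 6 of the 9 called genes. The 250 bases before the start of 3 targets are given, 5′ to 3′ on the strand of the gene. Capitals mark GTGGGAA, the motif of Rbpj, or its reverse complement TTCCCAC, which occur in 5.41% of 27025 promoter windows of that length.
Hes5: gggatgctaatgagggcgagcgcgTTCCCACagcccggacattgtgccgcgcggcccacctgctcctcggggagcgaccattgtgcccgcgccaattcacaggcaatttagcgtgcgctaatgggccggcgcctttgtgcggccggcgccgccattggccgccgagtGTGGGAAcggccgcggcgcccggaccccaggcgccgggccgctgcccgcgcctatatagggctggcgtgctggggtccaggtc
Hey2: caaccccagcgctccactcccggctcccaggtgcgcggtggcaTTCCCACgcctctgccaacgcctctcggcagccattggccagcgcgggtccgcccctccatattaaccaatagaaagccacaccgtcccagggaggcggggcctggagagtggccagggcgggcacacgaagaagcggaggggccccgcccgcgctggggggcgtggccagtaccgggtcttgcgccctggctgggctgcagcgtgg
Nrarp: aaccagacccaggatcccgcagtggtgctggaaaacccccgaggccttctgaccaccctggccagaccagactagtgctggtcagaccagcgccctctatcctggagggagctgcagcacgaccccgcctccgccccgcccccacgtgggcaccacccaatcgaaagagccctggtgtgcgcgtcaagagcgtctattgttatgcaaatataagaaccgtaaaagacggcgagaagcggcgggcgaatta
The windows lie at chr4:154960673-154960922 (+) for Hes5, chr10:30842784-30843033 (-) for Hey2 and chr2:25180508-25180757 (+) for Nrarp. Hes5 held 2 matches, 1 in each orientation, Hey2 held 1 and Nrarp held 0; of the 6 called genes with an entry, 2 held a match. The genes shown and the motif were chosen after the calls and the matches were seen: the promoters of 26 named genes had been looked up, of which 16 had an entry, 9 short motifs had been searched in them, and outside the Notch genes Irx2 also held a match to GTGGGAA. A match is a description of the letters in the window and draws on no binding data.

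Hes5, a repressor that keeps glia and progenitors undifferentiated, was read at 13.66, 13.03, 13.79 and 13.66 in cortical astrocytes and at 5.51 in each cerebellar array. The difference of 8.03 ± 0.24 was at least 186-fold (limma adjusted p = 9.3e-49), and Bergmann glia lay at 2.08. Unbound RNA held 9.22 to 11.03 in cortex and 6.996 to 7.130 in cerebellum, so that cerebellar astrocytes lay below their tissue. Nrarp was read at 12.77, 12.74, 12.55 and 12.60 against 8.15, 8.33 and 8.33, 21.1-fold, with a difference of the same kind in unbound RNA (8.04 to 10.11 in cortex, 3.45 to 4.12 in cerebellum). Hey2 was read at 10.59, 10.70, 10.92 and 10.80 against 8.34, 5.32-fold, and Heyl at 7.88, 6.83, 7.46 and 8.01 against 2.06.

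The receptor gene Notch1 was read at 10.68, 9.73, 10.01 and 9.70 against 7.89, 8.10 and 7.95 (4.13-fold), and the ligand gene Jag1 stood at 6.66 ± 0.66 against 4.84 ± 0.24. Another target, Hey1, stood at 12.04 ± 0.34 against 10.52 ± 0.09. The receptor Notch2 (9.59 against 8.50) and the target Hes1 (9.88 against 8.76) were called with the control scaling but not with quantiles, and the Notch2 call ended without cortical replicate 1 or replicate 3 and the Hes1 call without cortical replicate 4. Notch3 (6.54 and 7.08), the Fringe genes Lfng (7.87 and 7.92) and Rfng (9.58 and 9.03) and the coactivator Maml1 (8.32 and 7.85) were not called.

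In the hedgehog pathway, sonic hedgehog, made in the cerebellum by Purkinje neurons, binds Patched (Ptch1), with Gas1 as a co-receptor and Hhip as a decoy; this frees Smo, and Gli factors then act on targets that include Ptch1, Hhip and Gli1. Of 8 tested, 4 were higher in cerebellar astrocytes and 2 in cortical ones (list median -0.35), against 12.1% and 17% of all tested genes. The 3 target genes were all on the cerebellar side. Ptch1 was read at 14.37, 14.63 and 14.47 against 13.44, 12.11, 13.37 and 12.53 in cortical astrocytes (-1.63 ± 0.29, 3.10-fold). Gli1 was read at 6.43, 6.51 and 6.51 against 3.17, 2.62, 2.60 and 4.42, under the minimum in all cortical arrays, and Hhip at 7.74, 7.79 and 7.79 against 3.27 to 4.16.

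The co-receptor Gas1 followed the targets, with 13.31, 13.38 and 13.42 against 12.18, 12.32, 12.34 and 11.72. The calls for Ptch1 and Gas1 ended when the mean of all probe sets stood for a gene. Gli2 and Gli3, the transducing Gli factors, had the opposite order: Gli2 was read at 10.73, 10.31, 10.48 and 10.10 in cortical astrocytes against 8.95 to 8.96, and Gli3 at 10.75, 10.78, 10.81 and 10.58 against 9.30, 9.07 and 9.20. Smo (9.24 and 8.68) and the inhibitor Sufu (8.03 and 7.49) were not called. Bergmann glia had Ptch1 at 14.78 to 14.97 and Gli1 at 7.70 to 8.62.

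**Figure D4:**
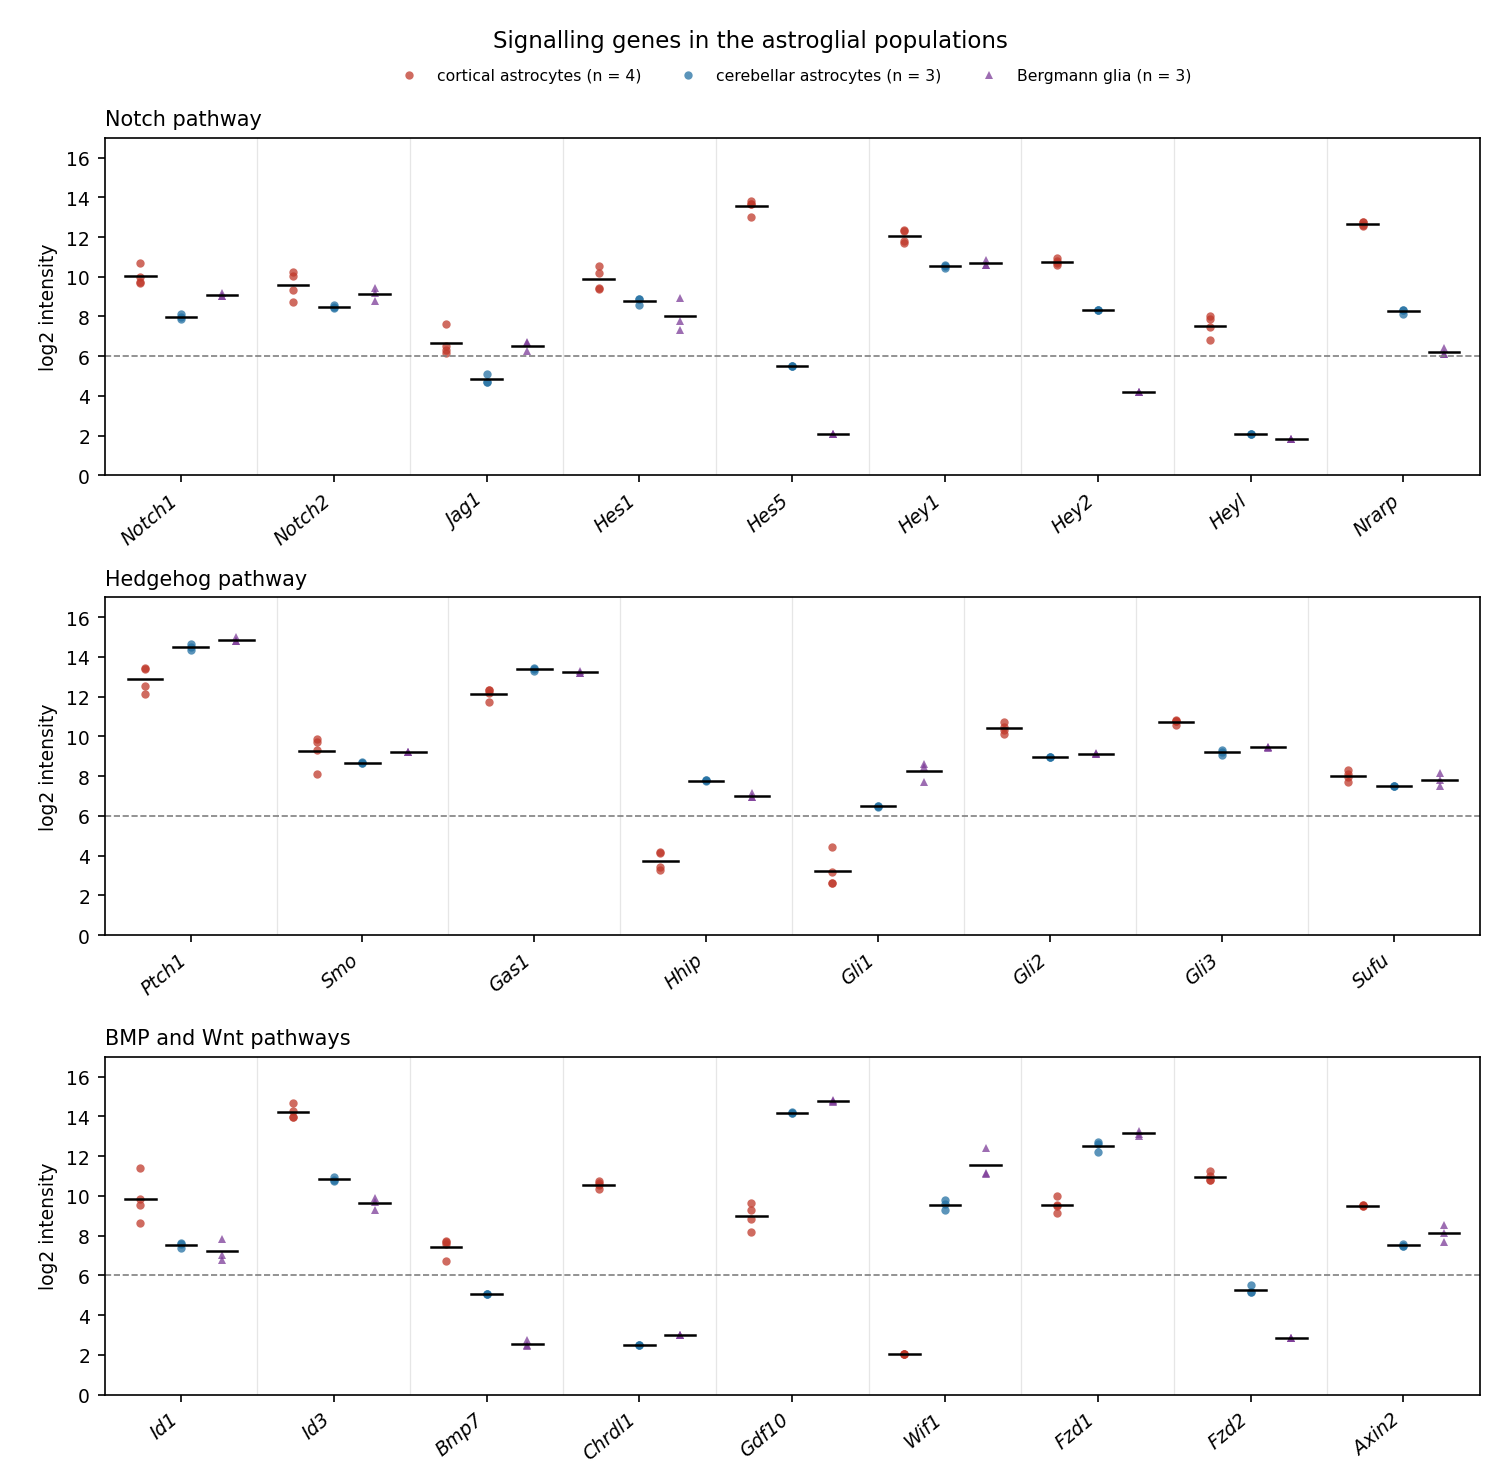
Log2 intensity (vertical axis) of Notch, hedgehog, and BMP and Wnt pathway genes in each array of cortical astrocytes, cerebellar astrocytes and Bergmann glia, with means as black bars and the minimum of 6 as a dashed line. Hes5, Hey2, Heyl and Nrarp are higher in all 4 cortical arrays, Ptch1, Gas1, Hhip and Gli1 in all 3 cerebellar arrays.

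The BMP and Wnt pathways gave 11 genes higher in cortical and 4 higher in cerebellar astrocytes of 23 tested (list median 1.01). The shares of all tested genes were 17% and 12.1%. Id3, an inhibitor of basic helix-loop-helix factors and a direct target of BMP, was read at 14.29, 13.97, 13.97 and 14.65 against 10.75, 10.97 and 10.80, 10.4-fold. Id1 was read at 9.53, 9.83, 8.66 and 11.39 against 7.36, 7.63 and 7.58, while Id2 (15.68 and 15.08) and Id4 (14.51 and 14.64) were not called. The ligand gene Bmp7 stood at 7.44 ± 0.48 against 5.07. Chrdl1, a secreted BMP antagonist that also matures synapses, was read at 10.65, 10.34, 10.75 and 10.53 against 2.49, at least 23.7-fold.

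The Wnt receptor gene Fzd2 stood at 10.96 ± 0.22 in cortical astrocytes against 5.28 ± 0.21, and Fzd1 stood at 12.51 ± 0.27 in cerebellar astrocytes against 9.55 ± 0.35 in cortical ones. Axin2, a feedback target of Wnt signalling, stood at 9.51 ± 0.04 in cortical and 7.53 ± 0.06 in cerebellar astrocytes, and Lef1 was on the cortical side as given above. Wnt7b was higher in cortical (9.62 against 8.06) and Wnt5a in cerebellar astrocytes (6.97 against 5.48). Wif1, which binds and blocks Wnt ligands, was read at 9.29, 9.61 and 9.79 in cerebellar astrocytes and at 2.04 in every cortical array (at least 11.8-fold).

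Of 12 FGF pathway genes tested, 2 were higher in cortical and 1 in cerebellar astrocytes, where 17% and 12.1% of all tested genes were. Spry1, an inhibitor of FGF signalling, stood at 9.68 ± 0.24 in cerebellar and 8.23 ± 0.31 in cortical astrocytes. Dusp6, another feedback gene, was read at 11.93, 10.36, 12.13 and 9.48 against 9.23 to 9.42, cortical replicates 2 and 4 lying below 1 and 3, and the call ended when the compared arrays were fitted alone. The receptor gene Fgfr3 (11.99 and 11.03) was not called.

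Secreted proteins that act on synapses were divided. Of 14 tested, 7 were higher in cortical and 4 in cerebellar astrocytes (list median 1.04), against 17% and 12.1% of all tested genes. Gpc5, a glypican, was read at 12.97, 12.83, 12.97 and 12.92 in cortical astrocytes against 9.23, and at 4.04 in Bergmann glia; Gpc6, of the same family, went the other way (9.36 against 7.31). The thrombospondins also parted, with Thbs4 at 7.37 ± 0.54 against 2.06 on the cortical side and Thbs3 at 10.23 ± 0.13 against 7.72 ± 0.35 on the cerebellar side. Sparc, which restrains synapse formation, was read at 13.08, 13.60 and 13.58 in cerebellar against 10.77, 9.51, 10.36 and 10.87 in cortical astrocytes, while its relative Sparcl1 stood at 14.50 and 14.65. The cytokine Il33 was read at 12.66, 11.92, 12.53 and 12.63 in cortical against 10.49, 10.06 and 10.21 in cerebellar astrocytes.

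Of 11 matrix genes tested, 6 were higher in cortical and 4 in cerebellar astrocytes (list median 1.25). All tested genes gave 17% and 12.1%. The proteoglycan Cspg5 was read at 12.43, 11.48, 11.85 and 12.67 against 7.29, 7.59 and 7.59, 24.5-fold. Neurocan (Ncan) was read at 9.85, 10.36, 10.44 and 10.11 against 5.64, and Hapln1, the link protein that fixes such proteoglycans to hyaluronan, at 10.05, 9.85, 10.45 and 9.06 against 2.06. Brevican (Bcan) was 2.37-fold higher in cortical astrocytes, and Spon1, Lamb2, Timp4 and Itih3 were higher in cerebellar ones. Of 10 guidance genes tested, 3 were called on each side; the receptor Ephb1 stood at 9.60 ± 0.33 against 6.75 on the cortical side, and the ligand Efnb2 was read at 10.62, 10.58 and 10.70 in cerebellar against 4.78, 5.04, 5.98 and 5.98 in cortical astrocytes.

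Of 16 genes of glycogen, glucose and lactate tested, 6 were higher in cortical astrocytes and none was higher in cerebellar astrocytes (list median 0.73). Over all tested genes these shares were 17% and 12.1%. Glycogen, which astrocytes store for the brain, is made by glycogen synthase and broken down by phosphorylase. The synthase Gys1 was read at 8.87, 8.58, 8.77 and 8.45 against 6.93 and the regulatory subunit Ppp1r3d at 10.89, 10.64, 10.48 and 9.72 against 7.08 to 7.40. The brain phosphorylase Pygb (12.49 against 11.04) and the phosphorylase kinase subunit Phkg1 (9.81 against 8.19) were also higher, whereas the muscle phosphorylase Pygm (8.49 and 8.98) was not called. Of 20 lipid genes tested, 5 were higher in cortical and 1 in cerebellar astrocytes. The list median was 0.22, near the 0.17 of all genes tested. Among the 5 were the fatty acid regulator Srebf1 and the acyltransferase Gpam, and Apoe (15.05 and 14.84) and Lcat (11.70 and 12.25) were not called.

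Handling of thyroid hormone and retinoids gave 3 genes on the cortical and 4 on the cerebellar side of 11 tested (list median -0.37). All tested genes gave shares of 17% and 12.1%. Dio2, the deiodinase that makes active thyroid hormone, was read at 13.87, 13.56, 13.59 and 13.60 in cortical against 11.65, 11.46 and 11.67 in cerebellar astrocytes. Slco1c1, a thyroxine transporter, was read at 12.23, 11.14, 12.36 and 11.09 against 4.70 to 5.24, at least 52.1-fold. Of the retinoid genes, 4 were higher in cerebellar astrocytes: the synthesizing dehydrogenases Aldh1a1 (15.28 against 13.78) and Aldh1a2 (9.26 against 7.66, with 3.92 in Bergmann glia), the retinol dehydrogenase Rdh10 (9.95 against 8.44) and the degrading Cyp26b1 (6.87 against 2.25). Aldh1a2 was read at 6.84, 8.32, 7.48 and 8.01 in the cortical arrays, replicates 2 and 4 being the higher, as for Ttr. The part of choroid plexus RNA in its difference was not tested. The receptor gene Rarb (6.62 and 6.35 in cerebellar and cortical astrocytes) and the binding protein gene Crabp2 (6.65 and 6.28) were not called. The orphan receptor gene Rorb was higher in cortical astrocytes (10.52 against 8.08).

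Among the 12 genes with the largest difference on each side, several belonged to no list. On the cortical side these were the transcript 2900052N01Rik (13.82, 13.28, 13.87 and 14.07 against 5.25), Gm11627 (12.34 ± 0.20 against 3.43), Pdzph1 (10.82 ± 0.72 against 2.09), Arhgap24 (9.73 ± 0.17 against 2.14 ± 0.13), and Prdm16os, a transcript of the opposite strand at Prdm16 (10.62 ± 0.28 against 2.06). On the cerebellar side they were Cacng5, Cacng7 and Dao, given above, the organic anion transporter Slco4a1 (13.64, 13.48 and 13.51 against 3.75 to 4.48), the tumour necrosis factor family ligand Cd70 (11.10 ± 0.17 against 2.26 ± 0.13), the heparan sulfatase Sulf1 (11.07 ± 0.06 against 2.49 ± 0.27), the prostaglandin dehydrogenase Hpgd (11.02 ± 0.07 against 2.94 ± 0.37), the cilium protein gene Cys1 and the caspase gene Casp12 (9.73 ± 0.18 against 2.04). In Bergmann glia the 5 cortical transcripts lay at 3.49 or lower. Of the cerebellar genes, Slco4a1, Cd70, Sulf1, Hpgd and Casp12 lay at 10.32 or above in every Bergmann glia array, and Cys1 lay at 7.41 to 8.61.

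Regional differences of the astrocytes were set against those of the unbound tissue. Of the 742 genes higher in cortical astrocytes under both scalings, 105 (14.2%) were also at least 2-fold higher in unbound cortex under both, against 5.24% of all tested genes, and 104 (14%) were at least 2-fold higher in unbound cerebellum. Of the 707 genes higher in cerebellar astrocytes, 223 (31.5%) were at least 2-fold higher in unbound cerebellum, against 22.1% of all tested genes, and 59 (8.35%) were at least 2-fold higher in unbound cortex. The difference between the astrocyte and the tissue contrast was tested in the same fit; it shares the astrocyte arrays with the comparison above. Its median over all genes was 1.25 with the control scaling and 0.23 with quantiles, and the control scaling alone called 3409 genes (58%) to the cortical side. It was called under both scalings to the cortical side for 1638 genes (27.9%) and to the cerebellar side for 485 (8.26%). Among the 742 and 707 genes, 527 (71%) and 340 (48.1%) were called so on their own side.

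Some genes ran against their tissue. The 6 named here were picked by hand from the gene lists after their values were seen, out of the 1638 and 485 genes called, and stand as examples only. Npy was read at 12.01, 12.48 and 12.20 in cerebellar astrocytes and at 4.33, 5.73, 5.34 and 6.11 in cortical ones, while unbound cortex held 9.55 to 11.88 and unbound cerebellum 7.45 to 8.66. The astrocyte difference minus the tissue difference was -9.93 ± 0.43 (SE), or -11.17 relative to the median of all genes. Grin2c lay 11.57 ± 0.42 above the tissue difference, Pax6 10.06 ± 0.30 above it and Car8, a carbonic anhydrase relative known from Purkinje neurons, 9.51 ± 0.39 above it; relative to the median these were 10.33, 8.81 and 8.27. Car8 was read at 12.32, 12.57, 12.40 and 12.80 in cortical astrocytes, where unbound cortex held 6.50 to 8.83 and unbound cerebellum 14.34 to 15.54. For Gria1 and Efnb2 it was -6.22 ± 0.34 and -7.05 ± 0.28.

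**Figure D5:**
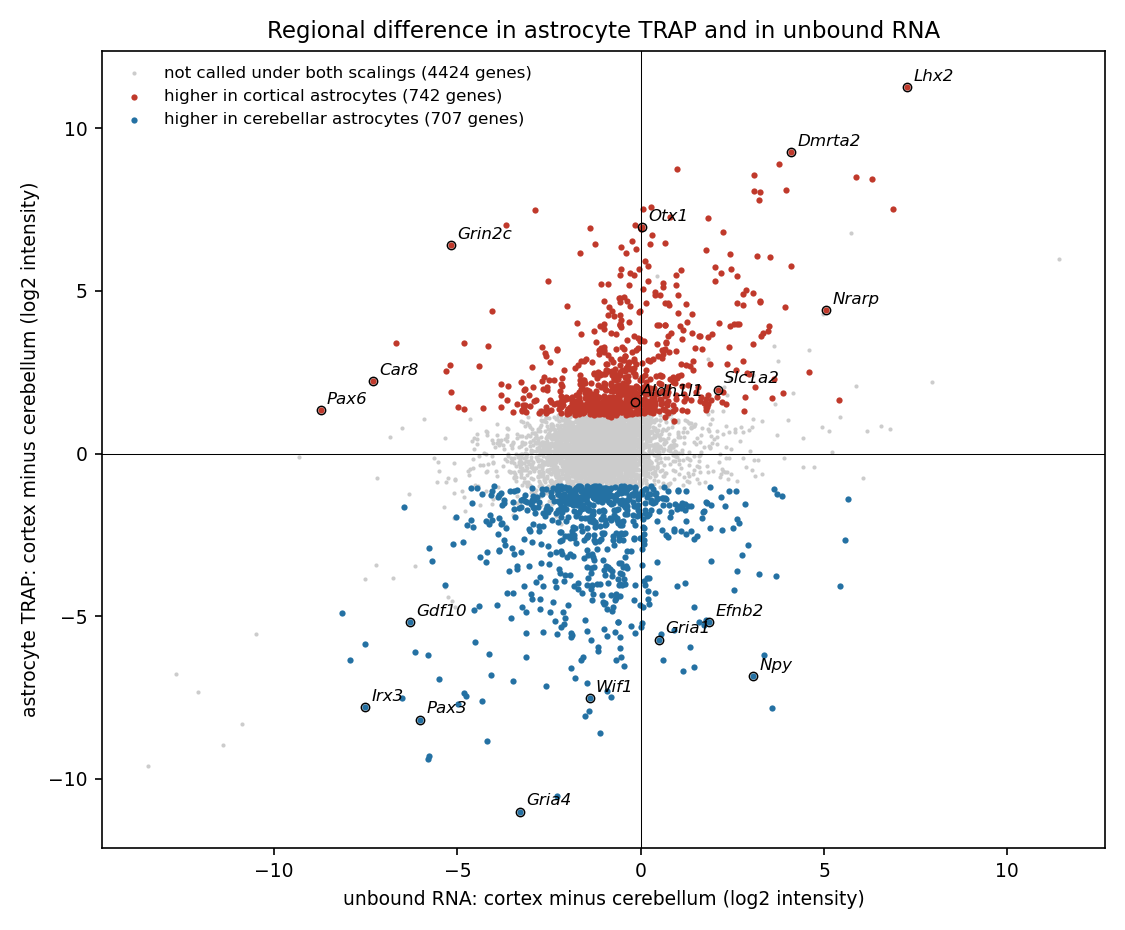
Difference between cortex and cerebellum in astrocyte TRAP RNA (vertical axis, log2) against that in unbound RNA (horizontal axis, log2) for the 5873 genes tested, with the 742 genes called higher in cortical and 707 called higher in cerebellar astrocytes under both scalings in colour and genes of the text circled. Grin2c, Car8 and Pax6 lie at the upper left and Npy, Efnb2 and Gria1 at the lower right, where astrocytes and tissue have opposite signs.

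Other glia of the same tissues shared part of the split. Both oligodendroglial populations were at least 2-fold higher in cortex for 77 of the 998 genes (7.72%, against 2.52% of all tested genes) and at least 2-fold higher in cerebellum for 66 of the 713 (9.26%, against 3.97%). Aldh1l1 itself had a regional difference of 4.45 in mixed oligodendroglia and of 0.71 in mature oligodendrocytes; the part of astrocyte RNA in this contrast was not tested. Irx3 was such a gene, with 6.93 and 10.87 in cerebellar mature oligodendrocytes and mixed oligodendroglia and about 2 in the cortical ones (2.03 and 1.98). Lhx2 stood at 6.73 and 10.23 in the cortical and at 2.52 and 1.55 in the cerebellar oligodendroglial populations. The astrocyte difference was tested against the mean of the oligodendroglial differences and was called with the control scaling for 1549 genes (26.4%) to the cortical and 740 (12.6%) to the cerebellar side. It was called under both scalings to the cortical side for 921 genes (15.7%) and to the cerebellar side for 732 (12.5%). Of the 742 and 707 genes, 502 (67.7%) and 502 (71%) were called so on their own side. This contrast holds the astrocyte difference by which these genes were chosen. Shares above those of all tested genes were therefore built in.

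Single genes differed widely in this respect; the 6 named next were likewise picked by hand after their values were seen, out of the 921 and 732 genes called. For Lhx2 the astrocyte difference exceeded the oligodendroglial one by 4.82 ± 0.23, for Otx1 by 5.92 ± 0.12 and for Fxyd6 by 6.81 ± 0.51. For Gria4, Wif1 and Npy the same contrast was -8.91 ± 0.35, -7.62 ± 0.32 and -10.55 ± 0.45. Olig1, a factor of the oligodendrocyte lineage, was higher in cortical astrocytes (13.77, 13.81, 13.62 and 13.92 against 10.15, 10.19 and 10.33) but stood at 14.73 and 14.78 in cortical and cerebellar mature oligodendrocytes and at 15.36 and 15.04 in mixed oligodendroglia. Olig2 was read at 8.84, 7.83, 7.67 and 8.82 in cortical astrocytes and at 2.15 in the cerebellar arrays. The summed intensity of the 8 progenitor genes, a list that holds Olig1 and Olig2, was 12900 to 16000 in cortical and 1400 to 1550 in cerebellar astrocytes. Its other members were not tested; Pdgfra (3.94 and 2.07), Sox10 (4.33 and 3.19) and Gpr17 (2.93 and 2.09) lay under the minimum in cortical and cerebellar astrocytes respectively, while Lhfpl3 (4.65 and 7.86) had the opposite order. The summed intensity of 13 myelin genes was 15800 to 20000 in cortical and 41100 to 44700 in cerebellar astrocytes, and the 1 gene of them that was tested was not called. The part of oligodendroglial RNA in the difference of Olig1 and Olig2 was not tested.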

How the data were processed

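Ribosome-bound and unbound RNA was hybridised to Affymetrix arrays. The authors deposited GCRMA intensity values on a linear scale, normalized within groups of replicates, per the submitters' processing notes; the GCRMA version is not given in the sources used here. Values were taken to log2 (intensity floor 1), and each group was shifted so that 18 biotinylated control probe sets had the same mean. Of 45101 probe sets, 34958 had 1 gene symbol, 932 had several and 9211 had none; the probe set with the highest mean over all arrays stood for each of 18194 genes. limma 3.58.1 (R 4.3.3) was fitted once over all arrays (eBayes with trend, Benjamini-Hochberg adjustment), and was tested on simulated data. The simulation drew independent noise, with the same SD for a gene in every group and without the unbound requirement. It therefore did not test the effect of normalization within groups of replicates. Named genes were the 3 markers, list members, and on each side the 12 called genes that differed most, whose arrays did not overlap and that were called under quantile normalization. The cell population, its gene lists and these rules were chosen with earlier results of these data known. Nothing in the labels ties replicates to separate animals, so p-values measure the spread between arrays. Alternatives covered scaling, the minimum, probe sets, the test, the unbound requirement, lines, a replicate block and each array left out.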

Additional observations from a re-analysis of the deposited data

Results flagged for a closer look

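Single arrays stood apart from the rest of their group for some of the named genes. Groups of 4 to 10 arrays with a mean at the expression minimum of 6 were examined for every named gene, and 32 of 341 such groups held an array whose gap to the nearest other exceeded the critical value of Dixon's test. Chance gives about 1 in 20. In cortical astrocytes, a single array stood above the others for Dio2 at 13.87 and Lhx2 at 14.12. In cortical astrocytes, a single array stood below the others for Bmp7 at 6.73, Grin2c at 9.87, Sparcl1 at 14.31 and Spry1 at 7.77. In unbound cortex, a single array stood above the others for Gjb6 at 10.002, Rorb at 10.85 and Sema6d at 10.002. In unbound cortex, a single array stood below the others for Dmrta2 at 5.91 and Fezf2 at 6.85. In unbound cerebellum, a single array stood above the others for Elovl2 at 9.51, Gabra4 at 11.53, Gria4 at 12.04, Grin2c at 11.66, Hey2 at 8.60, Hopx at 14.01, Id3 at 9.33, Kcnj10 at 10.65, Msx2 at 6.23, Npy at 8.66, Pax6 at 12.18, Slc1a2 at 11.79 and Sparcl1 at 13.92. In unbound cerebellum, a single array stood below the others for Cacng5 at 7.91, Gabrb1 at 10.41, Gfap at 8.56, Gli3 at 6.50, Hes5 at 6.996, Irx3 at 8.26, Slc38a3 at 6.41 and Zic2 at 8.78.

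Differences between groups under the same contrast were listed only for the 12 genes picked by hand beside the tissue and oligodendroglia contrasts, so that their number says nothing of how common such genes are. The astrocyte regional difference minus that of unbound tissue, called in limma under both scalings, was Pax6 with 10.06, Grin2c with 11.57, Car8 with 9.51, Gria1 with -6.22, Npy with -9.93 and Efnb2 with -7.05. The astrocyte regional difference minus that of oligodendroglia, called in the same way, was Lhx2 with 4.82, Otx1 with 5.92, Fxyd6 with 6.81, Npy with -10.55, Gria4 with -8.91 and Wif1 with -7.62.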

How the results depend on the processing

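With quantile normalization 1070 genes were higher in cerebellar astrocytes; 3359 genes were higher and 2987 lower in cerebellar TRAP than in unbound cerebellum; 537 were higher in cerebellar astrocytes than in Bergmann glia and 243 lower. Beyond the tissue it gave 1769 genes on the cortical and 1264 on the cerebellar side, and beyond oligodendroglia 1010 and 1235. With no further scaling these were 2248 and 784 beyond the tissue, and 1143 genes were higher in Bergmann glia. limma's treat with a 2-fold bound gave 499 and 429 genes between the astrocytes, 2241 on the cortical side beyond the tissue, 591 and 390 beyond oligodendroglia, and 142 higher and 148 lower than in Bergmann glia. Without the requirement of TRAP over unbound RNA the astrocyte counts were 1534 and 1296. With no expression minimum, 730 genes lay on the cerebellar side beyond the tissue, 1111 on that side beyond oligodendroglia and 590 above Bergmann glia; with a minimum of 8, 306 lay on the cerebellar side beyond the tissue, and 116 were higher and 292 lower than in Bergmann glia. The mean of all probe sets gave 321 and 451 on the cerebellar side beyond tissue and oligodendroglia. The cause of these changes was not tested.

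Leaving out each array of the populations compared in turn, unbound RNA kept whole, gave 900 to 1077 genes higher in cortical and 687 to 754 in cerebellar astrocytes. The ranges were 3175 to 3529 and 469 to 503 beyond the tissue, 1284 to 2012 and 588 to 851 beyond oligodendroglia, where the extremes came without cerebellar mature oligodendrocyte replicate 2 (1284 and 851) or replicate 3 (2012 and 588), 3185 to 3426 and 3129 to 3240 for cortical TRAP against unbound RNA, 1661 to 1722 and 5015 to 5118 for the cerebellar one, and 218 to 248 and 432 to 588 for cerebellar astrocytes against Bergmann glia. Cortical arrays of line JD130 alone gave 913 genes on the cortical side, those of JD133 alone 1158. Unbound cortex of the Aldh1l1 lines alone gave counts outside these ranges, with 4203 and 400 genes beyond the tissue. With it, 3823 genes were higher and 2636 lower in cortical TRAP than in unbound RNA. Same-numbered cortical and cerebellar arrays correlated at -0.182, -0.143 and -0.068 in their deviations. As the cerebellar astrocyte arrays varied little, these values cannot show whether or not the numbers pair the samples. With the replicate block 934 and 716 genes were called.

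Of 156 named genes tested, 124 were called; 87 of these kept their call under every alternative in which they were tested, 37 lost it in at least 1 and none changed sign. Without a call, Slc1a3 (0.002), Gja1 (0.165) and Rfng (-0.175) changed sign with the mean of all probe sets, Lfng with the replicate block (0.164) and without cortical replicate 2 (0.077), cortical replicate 4 (0.124) or cerebellar replicate 1 (0.040), and Hopx without cortical replicate 3 (0.002). The leave-one-out values of these genes ran from -0.241 to 0.124 for Lfng and from -0.214 to 0.002 for Hopx.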
